A study of Mus musculus with 10 samples.

Results

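The 10 immediate early genes Fos, Fosb, Jun, Junb, Egr1, Egr2, Egr3, Nr4a1, Atf3 and Ier2 were chosen by name, and their Ensembl identifiers were matched to symbols by GENCODE. They are 10 of the 56748 genes in the count tables. RNA came from whole hearts, both atria included, of wild-type male C57BL/6 mice that were 8 weeks old before the experiment. The training group (labelled Exercise, 5 hearts) was made to run on a treadmill for 8 weeks at 15 m/min for 120 min a day on 5 days a week, after rest and acclimatization. The sedentary control group (labelled Control, 5 hearts) was matched for age and did not train. Each heart gave 1 library. The hours between the last run and tissue collection, and the time of day of collection, are not given in the sources used here. The mice of the study were also scanned by PET/CT under isoflurane, in both groups.

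Immediate early genes are transcribed within minutes of a stimulus, from factors that are already present in the cell, without new protein synthesis. ERK, JNK and p38 kinases and calcium signals reach their promoters through SRF with its TCF partners and through CREB and ATF proteins, and the resulting mRNAs are short-lived. In the heart they are known to respond to pressure load, catecholamines, stretch and ischemia. A single harvest therefore reads their level at one moment in each mouse.

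Promoters were available in the RefSeq table for 7 of the 10 genes, not for Egr1, Egr3 and Ier2. The letters TGACG, the core of the cAMP response element to which CREB and ATF proteins bind, were searched on both strands in the 250 bases before each RefSeq start. They were found in 6 of these 7 promoters (in all but Jun) and in 17.8% of all 32851 promoters in the table. The full palindrome TGACGTCA, which contains TGACG, was in 0 of 7 (1.55% of all), and the AP-1 site TGANTCA in 0 of 7 (6.75% of all). A CArG box, the site read by SRF, was in 1 of 7 (Egr2) and in 1.47% of all. Matches describe letters in a window, not bound sites. Sites farther from the start, and variants of these letters, were not searched, so a gene without a match here may still have one. The Jun window, for example, holds TGACATCA, which none of these patterns matches. The sequences printed are those of Fos, Junb and Nr4a1, which were among the 5 genes with the highest mean correlation with the others, of Egr2, which holds the CArG box, and of Atf3, which had the weakest link to the others, so that the shared letters can be compared. They come from RefSeq (GRCm38.p6) and were placed on GRCm39 by exact match. Capitals mark TGACG, or CGTCA where it reads on the other strand, and in Egr2 also the CArG box. Fos lies at chr12:85520414-85520663 on the plus strand, Junb at chr8:85705378-85705627 on the minus strand, Nr4a1 at chr15:101164477-101164659 on the plus strand, Egr2 at chr10:67373449-67373698 on the plus strand and Atf3 at chr1:190915531-190915780 on the minus strand. The Nr4a1 sequence stops at the start of the canonical GENCODE transcript, which lies inside the annotated gene and 67 bases before the RefSeq start, and shows 2 of its 4 matches.
Fos: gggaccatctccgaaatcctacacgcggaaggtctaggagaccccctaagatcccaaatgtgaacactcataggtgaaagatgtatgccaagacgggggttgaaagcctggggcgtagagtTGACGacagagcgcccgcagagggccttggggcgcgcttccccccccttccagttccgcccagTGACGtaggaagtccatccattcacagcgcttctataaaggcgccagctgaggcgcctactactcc
Junb: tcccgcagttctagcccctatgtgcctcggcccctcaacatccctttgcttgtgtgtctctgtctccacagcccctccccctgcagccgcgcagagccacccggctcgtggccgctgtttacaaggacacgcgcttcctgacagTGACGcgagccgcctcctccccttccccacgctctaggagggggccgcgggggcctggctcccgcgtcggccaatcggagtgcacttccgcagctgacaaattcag
Nr4a1: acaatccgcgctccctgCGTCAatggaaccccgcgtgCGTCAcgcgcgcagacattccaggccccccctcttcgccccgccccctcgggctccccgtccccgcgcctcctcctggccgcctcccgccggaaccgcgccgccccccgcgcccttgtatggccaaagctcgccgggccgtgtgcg
Egr2: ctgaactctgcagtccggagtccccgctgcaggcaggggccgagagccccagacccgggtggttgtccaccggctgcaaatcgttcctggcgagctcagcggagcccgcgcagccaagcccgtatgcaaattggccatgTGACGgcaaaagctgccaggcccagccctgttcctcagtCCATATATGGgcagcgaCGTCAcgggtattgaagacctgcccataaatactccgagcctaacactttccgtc
Atf3: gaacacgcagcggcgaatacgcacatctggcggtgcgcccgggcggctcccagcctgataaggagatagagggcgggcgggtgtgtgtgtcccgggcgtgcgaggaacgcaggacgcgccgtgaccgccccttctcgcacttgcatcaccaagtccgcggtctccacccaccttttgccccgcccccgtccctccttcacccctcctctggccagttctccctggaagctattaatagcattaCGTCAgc

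The libraries held between 29461697 and 35945417 counts on genes in the training group and between 35196993 and 39431030 in the sedentary group. The summed level of 7 cardiomyocyte markers was 54950 to 59220 CPM (counts scaled to a common library size) in training and 57790 to 66450 CPM in sedentary hearts. All 7 had log2 fold changes below 0, and 1 (Actc1) was lower in the training hearts at a false discovery rate (FDR) below 0.1. Of the 9 atrial markers 4 were higher and 0 lower at that FDR, and their sum was 5334 to 8002 CPM in training and 2949 to 7142 CPM in sedentary hearts. The summed 6 endothelial markers were 770.3 to 826.6 CPM in training and 848.6 to 894.1 CPM in sedentary hearts, and 1 of 6 was lower at that FDR. Fibroblast markers gave 2 higher of 6, with sums of 1103 to 1363 and 957.5 to 1172 CPM, and smooth muscle and pericyte markers 2 higher and 1 lower of 7, with sums of 829.6 to 965.2 and 880.3 to 998.3 CPM. The part of these cell types in the results below was not tested beyond a fit with the atrial score. In RNA of whole hearts, fewer cells of a type and less RNA per cell cannot be told apart.

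The first question was whether the level of these genes at collection differed between training and sedentary hearts. All 10 passed the filter on low counts, with at least 15 counts in every library, and none passed an FDR below 0.1 in edgeR's quasi-likelihood test over 15454 genes. In all genes tested, 7.01% passed, 2.75% higher and 4.26% lower in training. DESeq2 also called 0 of the 10, but gave no adjusted p for Fosb and Egr2. Egr1, Egr3 and Atf3 had an unadjusted edgeR p below 0.05, 3 of 10 against 20.0% of all genes. The groups overlapped for all 10 genes, while 5.06% of all genes had groups that did not overlap. The log2 fold change, training against sedentary, was above 0 for 6 genes and had a median of 0.033, against 0.0003 for all genes. Its size without sign had a median of 0.24, against 0.092 for all genes. Where SE is given, it is the standard error of the log2 fold change.

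**Figure D1:**
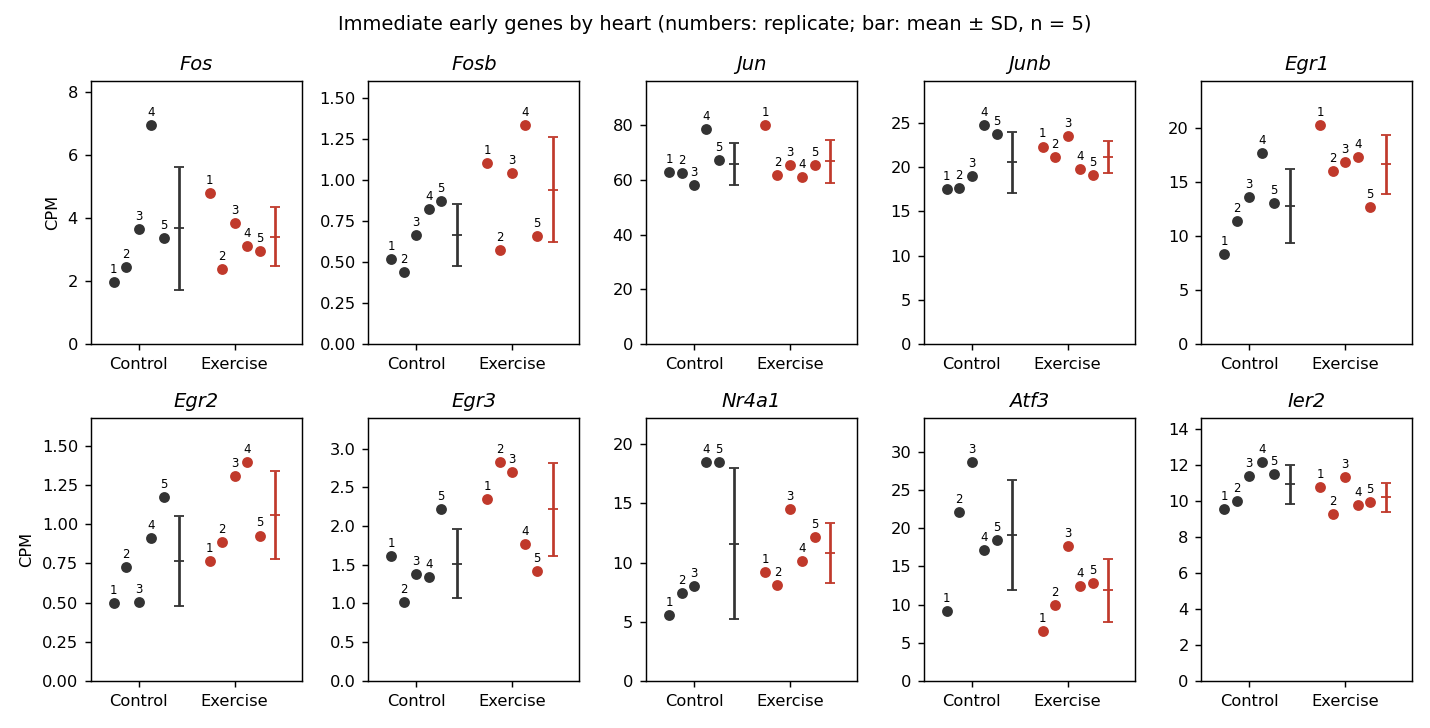
Level of each gene in CPM (y axis from 0, own scale per gene) in the 5 sedentary (Control, black) and 5 training (Exercise, red) hearts, with replicate numbers that do not pair hearts across groups, and mean ± SD. The groups overlap for all 10 genes, and sedentary hearts 4 and 5 stand at 18.5 CPM for Nr4a1, above the other 3.

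The AP-1 subunits came first. AP-1 is a dimer of a FOS protein and a JUN protein, or of related bZIP proteins such as ATF3. Fos (ENSMUSG00000021250, chromosome 12, 85520658 to 85524047 of GRCm39, plus strand) stood at 4.81, 2.37, 3.85, 3.11 and 2.95 CPM in training hearts 1 to 5 and at 1.99, 2.45, 3.67, 6.97 and 3.37 CPM in sedentary hearts 1 to 5. Both the lowest and the highest heart were sedentary. The means were 3.42 ± 0.939 CPM (SD, n = 5) in training and 3.69 ± 1.95 CPM (SD, n = 5) in sedentary hearts. The log2 fold change was −0.10 (95% interval −0.72 to 0.52, edgeR adjusted p = 0.887), so a change of either direction within that interval was not distinguishable. Without sedentary heart 4 it was 0.26.

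Fosb (ENSMUSG00000003545, chromosome 7, 19036621 to 19043976, minus strand), a close relative of Fos, was the lowest of the 10 per length, with 15 to 43 counts per library. It was at 1.10, 0.572, 1.04, 1.34 and 0.663 CPM in training hearts and at 0.521, 0.438, 0.665, 0.825 and 0.876 CPM in sedentary hearts. Training hearts 1, 3 and 4 lay above every sedentary heart. The log2 fold change was 0.51 (SE 0.26, 95% interval −0.05 to 1.06, edgeR adjusted p = 0.297).

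Jun (ENSMUSG00000052684, chromosome 4, 94937271 to 94940459, minus strand), the main partner of FOS proteins, was the most abundant of the 10 by length-scaled level. Training hearts were at 80.0, 61.8, 65.3, 60.9 and 65.5 CPM and sedentary hearts at 62.7, 62.6, 58.2, 78.4 and 67.1 CPM. In each group 1 heart stood above the other 4, training heart 1 and sedentary heart 4. The means of 66.7 ± 7.71 and 65.8 ± 7.74 CPM (SD, n = 5 each) gave a log2 fold change of 0.02 with a 95% interval from −0.16 to 0.20 (edgeR adjusted p = 0.924).

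Junb (ENSMUSG00000052837, chromosome 8, 85701113 to 85705359, minus strand), a JUN protein of weaker transactivation, was at 22.3, 21.1, 23.5, 19.8 and 19.1 CPM in training and at 17.5, 17.7, 18.9, 24.8 and 23.7 CPM in sedentary hearts. The sedentary hearts fell on both sides of the training range. Its log2 fold change was 0.05 (95% interval −0.17 to 0.26, edgeR adjusted p = 0.845). Prdx2 overlaps Junb on the other strand, and counts of the other strand were 8.39% of those of both strands together.

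Atf3 (ENSMUSG00000026628, chromosome 1, 190902493 to 190950241, minus strand), a stress-induced bZIP protein that often represses, had the largest difference in size. It was at 6.48, 9.96, 17.7, 12.4 and 12.9 CPM in training hearts and at 9.19, 22.1, 28.7, 17.1 and 18.4 CPM in sedentary hearts. All 5 training hearts were below the sedentary mean, yet sedentary heart 1 was below 4 of them. The means were 11.9 ± 4.11 and 19.1 ± 7.15 CPM (SD, n = 5 each), a log2 difference of −0.68 (SE 0.27, 95% interval −1.26 to −0.10, edgeR adjusted p = 0.179). It passed the threshold in the same test without sedentary heart 1 (log2 fold change −0.86, adjusted p = 0.0416) and with no filter on low counts (adjusted p = 0.0655). With the atrial score as a covariate its log2 fold change was −0.49 and its edgeR adjusted p 0.683.

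The EGR genes encode zinc finger factors that bind GC-rich promoters, and NAB proteins restrain them. All 3 had log2 fold changes above 0, in every one of 19 alternatives each. None passed the threshold with all 10 hearts, and Egr1 and Egr3 each passed in 1 fit that left out a heart. Egr1 (ENSMUSG00000038418, chromosome 18, 34992876 to 34998049, plus strand) was at 20.3, 16.0, 16.8, 17.3 and 12.6 CPM in training hearts and at 8.32, 11.4, 13.6, 17.6 and 13.0 CPM in sedentary hearts. Sedentary heart 4 was above 4 of the 5 training hearts. The means of 16.6 ± 2.74 and 12.8 ± 3.40 CPM (SD, n = 5 each) differed by 0.38 on the log2 scale (95% interval 0.03 to 0.73, edgeR adjusted p = 0.207). Without sedentary heart 4 it was 0.52 and passed (edgeR adjusted p = 0.0897).

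Egr2 (ENSMUSG00000037868, chromosome 10, 67371305 to 67378018, plus strand) had 19 to 49 counts per library. It stood at 0.764, 0.887, 1.31, 1.40 and 0.928 CPM in training hearts and at 0.497, 0.730, 0.505, 0.910 and 1.18 CPM in sedentary hearts. The training hearts were all at or above the sedentary mean of 0.764 CPM, but sedentary heart 5 was above 3 of them. The log2 fold change was 0.48 (SE 0.26, edgeR adjusted p = 0.327).

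Egr3 (ENSMUSG00000033730, chromosome 14, 70314350 to 70320063, plus strand) was at 2.35, 2.83, 2.702, 1.77 and 1.43 CPM in training hearts and at 1.61, 1.02, 1.38, 1.34 and 2.22 CPM in sedentary hearts. Training hearts 1, 2 and 3 were above every sedentary heart. Its log2 fold change was 0.55 (SE 0.22, 95% interval 0.08 to 1.02, edgeR adjusted p = 0.180), and 0.73 without sedentary heart 5, where it passed (edgeR adjusted p = 0.0948).

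Nr4a1 (ENSMUSG00000023034, chromosome 15, 101151980 to 101172681, plus strand), an orphan nuclear receptor induced by cAMP and calcium, was at 9.19, 8.10, 14.5, 10.2 and 12.1 CPM in training hearts and at 5.54, 7.41, 8.06, 18.5 and 18.5 CPM in sedentary hearts. Sedentary hearts fell into a low set of 3 and a high pair, with the training hearts between them. The means of 10.8 ± 2.55 and 11.6 ± 6.37 CPM (SD, n = 5 each) gave a log2 fold change of −0.10 (95% interval −0.74 to 0.55, edgeR adjusted p = 0.896). The SD of log2 CPM was 0.33 in training and 0.80 in sedentary hearts, and that difference in spread was not tested.

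Ier2 (ENSMUSG00000053560, chromosome 8, 85387960 to 85389483, minus strand), an immediate early nuclear protein, varied least in CPM relative to its mean. Training hearts were at 10.8, 9.27, 11.3, 9.77 and 9.91 CPM and sedentary hearts at 9.53, 9.98, 11.4, 12.2 and 11.5 CPM. The log2 fold change was −0.09 with a 95% interval of −0.26 to 0.08 (edgeR adjusted p = 0.557).

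**Figure D2:**
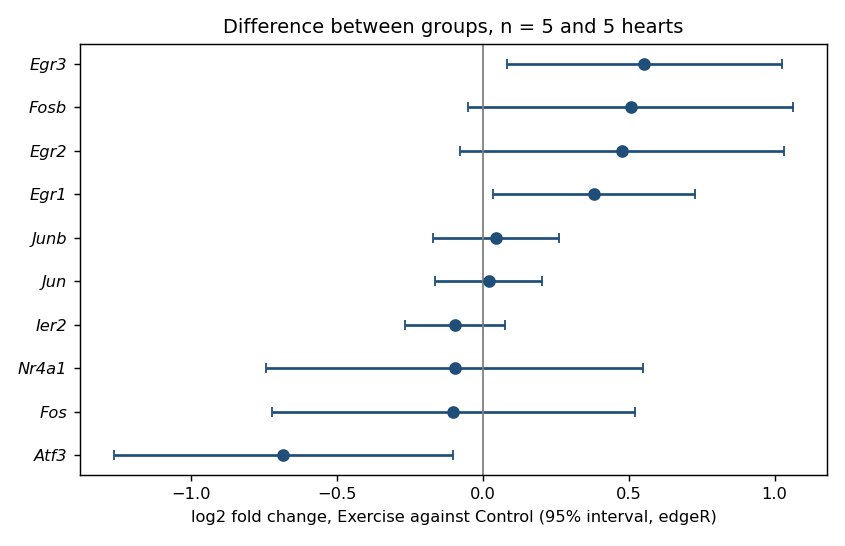
Log2 fold change, training (Exercise) against sedentary (Control), with the 95% interval from edgeR, for each gene (y axis), n = 5 and 5 hearts. The intervals of Egr3, Egr1 and Atf3 leave out 0 before adjustment, and none of the 10 passed an FDR below 0.1.

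Levels of different genes were compared by the authors' TPM, a transcript abundance scaled for length. Over the 10 hearts Jun led with 22.2 ± 2.07 TPM (SD), followed by Junb (12.6), Atf3 (8.81), Ier2 (7.68), Nr4a1 (4.98), Egr1 (4.97), Fos (2.03), Egr3 (0.606), Egr2 (0.486) and Fosb (0.251 TPM). Jun was above Junb, Egr1 above Fos, and Fos above Egr3 in 10 of 10 hearts. Atf3 was above Ier2 in 5 of 10 hearts and Nr4a1 above Egr1 in 4 of 10, so neither of these neighbours can be ordered over all 10. By group, mean Atf3 was 7.05 TPM in training and 10.56 TPM in sedentary hearts, with Ier2 at 7.66 and 7.71 TPM. Egr3 was above Egr2 in 7 of 10.

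The second question was how far single hearts of a group differed. The biological coefficient of variation (BCV), which edgeR estimates per gene within groups after removing counting noise, was set beside its trend with abundance. It was above the trend for 9 of the 10 genes, against 26.1% of all genes, and more than 2 times the trend for 4, against 1.97%. The ratio of BCV to trend was 3.63 for Nr4a1, 3.50 for Atf3, 2.37 for Fos and 2.10 for Egr1. Nr4a1 and Atf3 were at the 99.7th percentile of all genes. Ier2 alone was below the trend, with a ratio of 0.906. From the lowest to the highest of the 10 hearts, CPM spanned 4.43-fold for Atf3, 3.51-fold for Fos and 3.35-fold for Nr4a1, but 1.38-fold for Jun and 1.31-fold for Ier2.

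**Figure D3:**
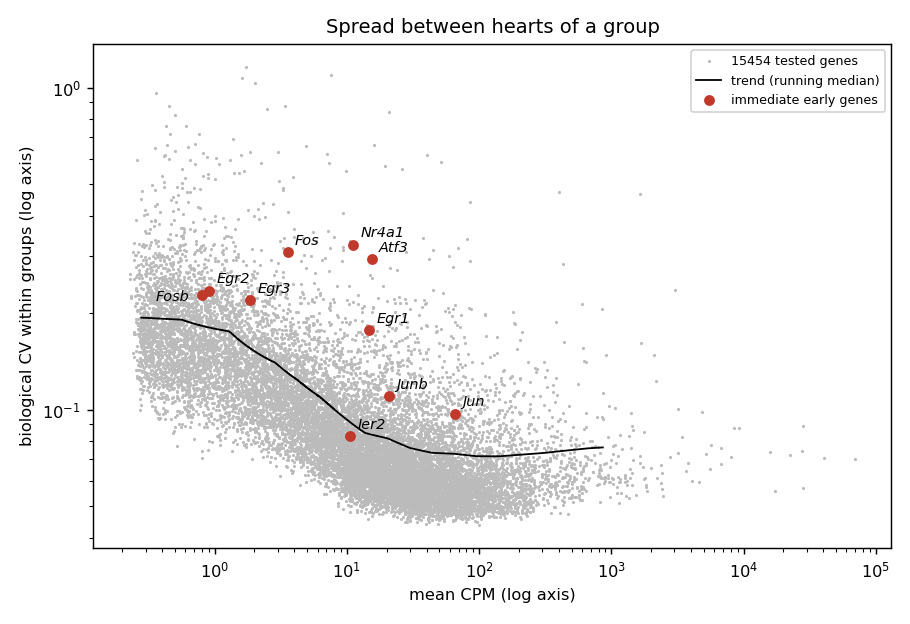
Biological coefficient of variation within groups against mean CPM (both log axes) for 15454 genes (grey), with the running median of the trend (line) and the 10 immediate early genes (red). With all 10 hearts, Nr4a1, Atf3, Fos and Egr1 lie at more than 2 times the trend and Ier2 lies below it.

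The third question was whether the genes varied together from heart to heart. For each gene the mean of its group was subtracted from log2 CPM, and the remaining deviations were correlated over the 10 hearts. Of the 45 pairs, 43 had a Pearson r above 0. The median r was 0.55, with a range from −0.44 to 0.90, while the median r of each of these genes with all tested genes lay between −0.03 and 0.01. The pairs share hearts and library scaling and are not independent. Among the 45, 13 had an exact permutation p below 0.05 and 1 passed Benjamini-Hochberg adjustment over the 45 at 0.1.

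That pair was Fos and Ier2, with r = 0.90 (exact permutation p = 0.00125, adjusted 0.0563) and Spearman's rho = 0.96 (exact permutation p = 0.000625, adjusted 0.0281). Without sedentary hearts 4 and 1, the farthest from the Fos median, r was 0.86. Fos and Egr1 had r = 0.87 (exact permutation p = 0.00646, adjusted 0.139) and rho = 0.87 (exact permutation p = 0.00583, adjusted 0.126), and r = 0.68 without the same 2 hearts. Junb and Nr4a1 had r = 0.84 (exact permutation p = 0.0312, adjusted 0.141) and rho = 0.82 (exact permutation p = 0.0395, adjusted 0.233), and r = 0.62 without sedentary hearts 4 and 5. Egr1 and Nr4a1 had r = 0.56 (exact permutation p = 0.190, adjusted 0.372) and rho = 0.53 (exact permutation p = 0.198, adjusted 0.406), and this rested on sedentary hearts 1 and 4, without which r was −0.06.

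The mean r with the other 9 genes was highest for Junb (0.63), Ier2 (0.61), Nr4a1 (0.59), Fos (0.56) and Egr1 (0.54). It was 0.17 for Egr3 and 0.10 for Atf3. The 9 pairs with Atf3 had r from −0.44 (with Jun, exact permutation p = 0.220, adjusted 0.397, rho = −0.43, exact permutation p = 0.245, adjusted 0.460) to 0.39. Atf3, with the largest difference between groups, had the weakest link to the other 9.

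**Figure D4:**
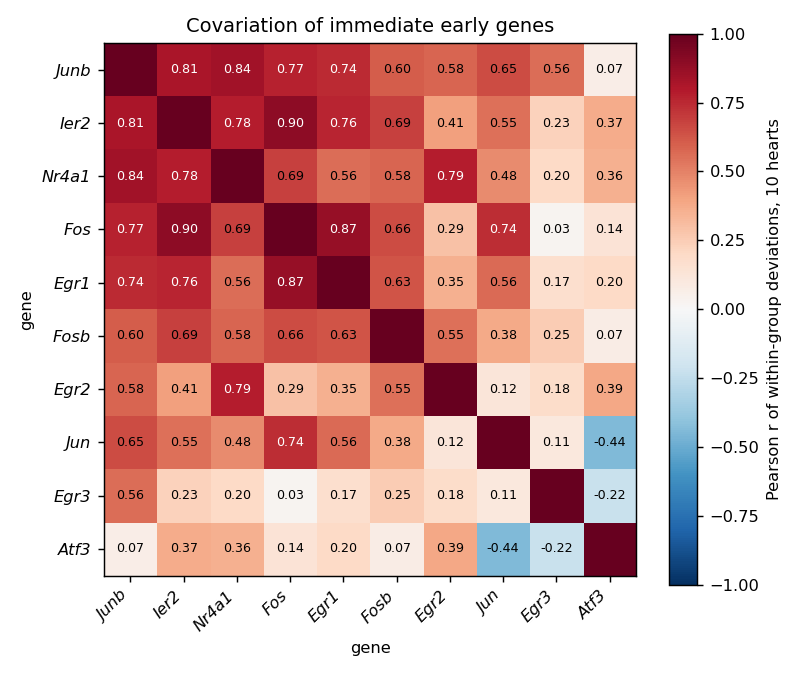
Pearson r between the within-group deviations of log2 CPM for each pair of genes (both axes) over 10 hearts, ordered by mean r. Junb, Ier2, Nr4a1, Fos and Egr1 form the block with r from 0.56 to 0.90, and no pair with Egr3 or Atf3 exceeds 0.56.

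Single hearts carried this pattern across many of the genes. Sedentary heart 1 was the lowest of its group for 7 of the 10 genes and below the group mean for 9. Sedentary heart 4 was the highest of its group for 6, and sedentary heart 5 was above the mean for all 10. In the training group, heart 3 was above the mean for 9 genes and heart 2 below it for 8. Leaving out each heart in turn gave a median r of 0.41 to 0.56.

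**Figure D5:**
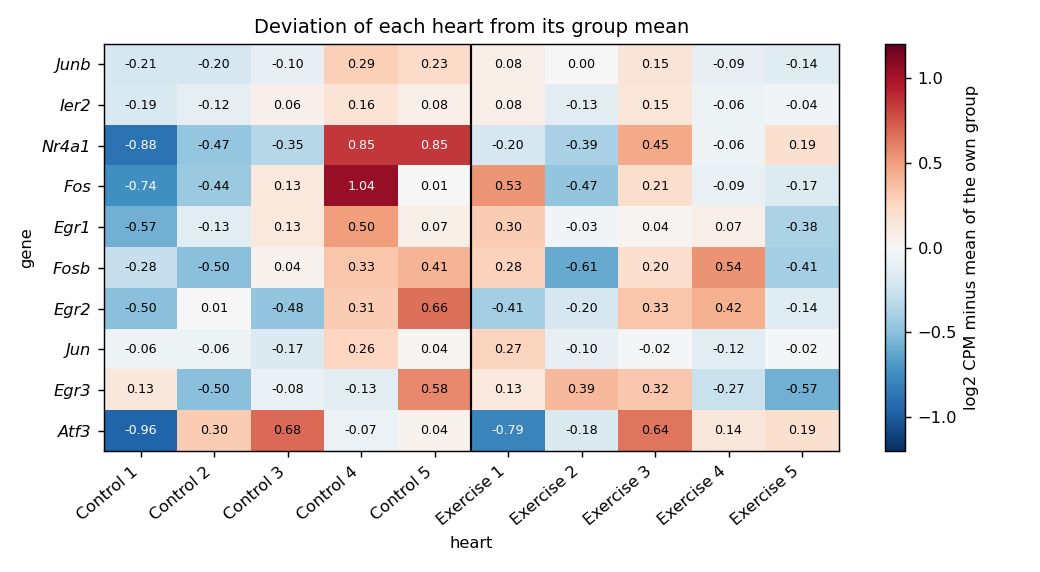
Deviation of log2 CPM from the mean of the own group for each gene (rows) and heart (columns, sedentary or Control left of the line, training or Exercise right), red above and blue below the mean. Sedentary heart 1 is below the mean in 9 rows and sedentary heart 5 above it in all 10, though by only 0.007 for Fos. Across the sedentary hearts the contrast is deepest in Nr4a1, Fos and Atf3.

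Other measured values moved with these hearts. Sedentary heart 1 had the lowest summed cardiomyocyte markers of its group (57790 CPM, the other 4 at 62510 to 66450 CPM) and the highest atrial markers (7142 CPM, the other 4 at 2949 to 5087 CPM). It was also the highest of its group in summed fibroblast (1172 CPM), macrophage (261 CPM), epicardial (89.4 CPM), neutrophil, erythroid, lymphocyte and adipocyte markers. Sedentary heart 3 came close in fibroblast (1164 CPM), macrophage (260.9 CPM), neutrophil and erythroid (134.4 CPM) sums, but not in epicardial, lymphocyte or adipocyte sums. Yet sedentary heart 3 was above its group mean for 5 of the 10 genes and below it for 5. Erythroid markers (0 of 5 called) summed to 141.3 CPM in sedentary heart 1, in a range of 39.1 to 98.8 CPM in training and 60.3 to 141.3 CPM in sedentary hearts. Lymphocyte markers (1 of 6 tested, 0 called) summed to 7.89 CPM, with ranges of 1.00 to 4.98 and 0.745 to 7.89 CPM, and adipocyte markers (0 of 5 called) to 138.6 CPM, with ranges of 20.7 to 170.4 and 18.0 to 138.6 CPM. Of the 6 neutrophil markers, 3 were tested and 0 were called, and Ly6g, Retnlg and Cxcr2 did not pass the filter. Their sum was 1.43 to 3.99 CPM in training and 1.82 to 6.33 CPM in sedentary hearts, with sedentary hearts 1 and 3, where Egr2 was lowest, at 6.33 and 5.67 CPM. The summed 13 core clock genes stood at 570.4, 684, 602, 802 and 813 CPM in sedentary hearts 1 to 5, lower in the 3 hearts with low Nr4a1 than in the pair with high Nr4a1. In training hearts 1 to 5 they stood at 819.8, 712, 752, 783 and 867.5 CPM. Heart 2 was lowest in both, but heart 3, with the highest Nr4a1, had the second lowest clock sum. Tef added most to the clock sum (means of 206.7 CPM in training and 158.1 CPM in sedentary hearts), and Per1 is itself an immediate early gene. The sum does not stand for every clock gene. Bmal1, Clock and Npas2 ran against the immediate early genes, with a mean r of −0.48, −0.55 and −0.47. The other clock genes had a mean r above 0. Of these clock genes 5 were higher and 3 lower in training at an FDR below 0.1. The correlations with lists that follow used the mean log2 CPM over the tested genes of a list, not the summed CPM. Egr2 with neutrophil markers (r of within-group deviations −0.95) and Nr4a1 with clock genes (0.87) were the lowest and highest pairs of the measures compared. Similar in size were Egr1 with cardiomyocyte markers (0.82), Egr3 with counts on genes (0.82) and Jun with endothelial markers (−0.81). The median r over the immediate early genes was weaker, at −0.45, 0.57, 0.42, 0.17 and −0.45 for these measures in turn. The part of cell makeup, clock phase or library depth in the covariation was not tested.

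Of 13109 other genes that averaged 1 CPM or more, the 8 whose deviations were most like those of the 10 genes were Champ1 (mean r 0.69), Mall (0.68), Klf4 (0.66), Gnb1l (0.65), H3f3a (0.65), Mid1 (0.65), Tmem52 (0.64) and Gm13341 (0.64), over 10 hearts. Klf4 encodes a zinc finger factor that is itself an immediate early gene. H3f3a encodes a histone, and whether related sequences affect its counts was not tested. The median over all ranked genes was −0.01, and 331 (2.53%) had a mean r of at least 0.5.

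Beyond the 10, lists of 112 other immediate early genes and upstream factors were examined, of which 106 were tested. At an FDR below 0.1, 4 were higher and 3 lower in training, or 6.60% against 7.01% of all genes. Other AP-1 members gave 0 of 8, with Jund, the third JUN gene, at a log2 fold change of 0.18 (edgeR adjusted p = 0.176). Other EGR and NR4A family genes gave 0 of 5. Nr4a3, a relative of Nr4a1, was at 51.1 ± 19.8 CPM in training and 88.0 ± 31.0 CPM in sedentary hearts (SD, n = 5 each, log2 fold change −0.78, edgeR adjusted p = 0.155). Nab2, a corepressor of EGR proteins, had a log2 fold change of 0.31 (edgeR adjusted p = 0.198). These 3 genes were chosen after their values were seen. Other immediate early transcription regulators gave 0 of 21 and ERK, JNK and p38 kinases 0 of 18.

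Feedback genes gave 2 higher and 1 lower of 26. Dusp4, a phosphatase of ERK, rose from 5.08 ± 0.542 CPM in sedentary to 7.20 ± 1.22 CPM in training hearts (SD, n = 5 each, log2 fold change 0.50, edgeR adjusted p = 0.0376). Dusp10, a phosphatase of JNK and p38, rose from 5.31 ± 0.512 to 6.71 ± 0.413 CPM (log2 fold change 0.34, edgeR adjusted p = 0.0444), and lost the call without training heart 3 (adjusted p = 0.106). Errfi1, an inhibitor of EGF receptors, fell from 37.0 ± 8.64 to 23.4 ± 6.19 CPM (log2 fold change −0.66, edgeR adjusted p = 0.0717).

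Secreted and enzyme genes gave 2 higher and 1 lower of 11. Ccn2, a matricellular protein, rose from 243 ± 38.4 to 384 ± 56.0 CPM (log2 fold change 0.66, edgeR adjusted p = 0.0116). Ptgs2, the inducible cyclooxygenase, rose from 2.21 ± 0.436 to 3.38 ± 0.474 CPM (log2 fold change 0.62, edgeR adjusted p = 0.0379). Among the 17 SRF, TCF and CREB factors only Mrtfb, a coactivator of SRF, passed, falling from 52.7 ± 3.73 to 47.0 ± 1.05 CPM (log2 fold change −0.16, edgeR adjusted p = 0.0788). Dusp4, Ccn2 and Ptgs2 kept their calls in 10 of 10 fits without 1 heart. Errfi1 kept it in 3, lost without training hearts 1, 2 or 3 or sedentary hearts 2, 3, 4 or 5. Mrtfb kept it in 2, those without sedentary heart 1 or 2. Mrtfb also lost its call with library totals alone. All 7 calls were lost with the atrial score as a covariate, where Ccn2 had an adjusted p of 0.152 in edgeR. In that fit 68 of all tested genes were called, against 1084. The log2 fold changes there were 0.60 for Ccn2, 0.56 for Dusp4, 0.45 for Ptgs2 and 0.27 for Dusp10. They were −0.56 for Errfi1 and −0.21 for Mrtfb.

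As a description over 10 hearts, the median over the kinase list of each gene's mean r with the 10 genes was −0.06, against 0.36 for other AP-1 members, 0.34 for other transcription regulators, 0.29 for feedback genes, 0.29 for secreted and enzyme genes, 0.27 for SRF, TCF and CREB factors and 0.11 for other EGR and NR4A genes. Lists of other kinds reached like values, with 0.41 for core clock genes, 0.32 for glucocorticoid-induced genes and 0.27 for cardiomyocyte markers. Neutrophil markers were at −0.45. Within the clock list the mean r was −0.48 for Bmal1, −0.55 for Clock and −0.47 for Npas2. The other clock genes were above 0, from 0.04 (Cry1) to 0.59 (Cry2). Lists share genes: Per1 (0.47) is in the clock, glucocorticoid and transcription regulator lists. Klf9 and Sgk1 are in the glucocorticoid list and in an immediate early list. The BCV was above the trend for 21 of 26 feedback genes and for 1 of 18 kinases, against 26.1% of all genes. Lists of other kinds were also high, with 9 of 9 atrial markers, 11 of 13 core clock genes and 9 of 10 glucocorticoid-induced genes. Endothelial markers (1 of 6) and cardiomyocyte markers (2 of 7) were not, so a high BCV was not particular to immediate early genes. Of the lists of related stress programmes, the ATF4 list gave 0 of 8. Glucocorticoid-induced genes gave 3 lower of 10, namely Fkbp5 (log2 fold change −0.50, edgeR adjusted p = 0.0890), Mt1 (−0.32, adjusted p = 0.0105) and Cdkn1a (−0.79, adjusted p = 0.00504). Heat shock genes gave 1 higher of 8, Hspa1a (log2 fold change 0.82, edgeR adjusted p = 0.0968), which has a near-identical copy. Of the core clock genes, Bmal1 (log2 fold change −1.19), Clock (−0.30), Per3 (0.80) and Nr1d2 (0.43) had the smallest edgeR adjusted p, 0.0154, 0.0158, 0.0161 and 0.0231.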

How the data were processed

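RNA of 10 hearts (5 Exercise, 5 Control by label) was sequenced as single reads of 100 bases from directional poly-A libraries in 1 pool. Per the labels, reads were aligned by STAR 2.7.10a to GRCm39. The authors deposited its counts per gene, without normalization, and RSEM 1.3.3 expected counts, TPM and FPKM. FPKM deposited by the authors were not used. Reverse-strand counts (94.9% to 95.6% of both strands) were used. Rows that are no gene were left out (multimapping 17.9% to 19.2%, no feature 4.15% to 4.89% of reads). Symbols came from GENCODE M39, by Ensembl identifier (56017 of 56748 matched).

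The 10 genes and all lists were chosen with earlier results of these data known. In R 4.3.3 with edgeR 4.0.16, genes passing filterByExpr were fitted with TMM factors and the quasi-likelihood F test, with Benjamini-Hochberg adjustment over all tested genes and calls at an FDR below 0.1. CPM use TMM-corrected library sizes. Logarithms for scores and deviations used a prior count of 2. Correlation p-values were exact, two-sided, over 14400 arrangements of 1 gene within groups. Nothing says whether hearts share a litter, and p-values measure the spread between these 10 mice. Libraries of 1 group differed beyond counting noise (chi-square per degree of freedom 6.02 to 27.8).

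Named were all 10 genes, every list gene that passed (at most 4 per list in full, by adjusted p) and the 8 genes of at least 1 mean CPM with the highest mean r. The values of 1 list gene that this rule selects are not reported here. The lists covered other AP-1, EGR and NR4A genes, transcription regulators, feedback, secreted and enzyme genes, upstream factors, kinases, ATF4, glucocorticoid, heat shock and clock genes, and cell type markers, of which those that stand beside a result are given. Alternatives were other scaling (DESeq2 size factors, library totals), filters, DESeq2 1.42.0, rounded RSEM expected counts, counts of both strands, an atrial score as a covariate, the mouse number as a block, an FDR below 0.05, another prior count, Spearman correlation, and each heart left out.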

Additional observations from a re-analysis of the deposited data

Results flagged for a closer look

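Jun was at 80.0 CPM in training heart 1 (80.03 before rounding), against 60.9 to 65.5 CPM in the other 4 training hearts, a gap that exceeds Dixon's 95% limit for 5 values. The 10 genes gave 20 groups of 5 hearts, of which this was the 1 that stood out, and chance gives about 1 in 20. Without this heart the log2 fold change of Jun was −0.05.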

How the results depend on the processing

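Of the 10 genes, 1 was called with no filter on low counts (Atf3) and 0 to 1 without single hearts, against 0 in the reported fit. The signs of Fosb, Egr1, Egr2, Egr3, Atf3 and Ier2 held in 19 of 19 alternatives each. Those of Fos, Jun, Junb and Nr4a1 were opposite in 2, 4, 2 and 3. Fosb and Egr2 received no adjusted p from DESeq2. Genes called among all tested were 68 with the atrial score, 505 at an FDR below 0.05 and 512 to 1490 without single hearts, against 1084. Genes called in the lists of other immediate early genes were 0 with the atrial score and 3 to 19 without single hearts, against 7. The median r of pairs was 0.44 with library totals alone, 0.44 with Spearman correlation and 0.41 to 0.56 without single hearts, against 0.55. The cause of these shifts was not tested. Library totals alone moved the median of all genes to 0.053 and the split to 1028 higher and 341 lower, against 425 and 659.

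Mouse numbers did not pair the hearts: deviations of same-numbered hearts correlated at −0.10 to 0.16, and 3 of 10 hearts correlated best with their own number. With the number as a replicate block, 1 of the 10 genes (Atf3, edgeR adjusted p = 0.011) and 12 list genes were called. At 15 to 49 counts per library, Fosb and Egr2 were limited by depth as well as by the number of hearts, with a counting CV of 0.188 and 0.177.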
